A study of Caenorhabditis elegans with 2 samples.

Results

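The cytosolic ribosomal protein genes of Caenorhabditis elegans were taken as the protein-coding genes whose names are rpl- or rps- followed by a number, with or without a decimal suffix, which gave 76 of 19973 protein-coding genes. Of these, 45 are named for the large subunit (rpl) and 31 for the small subunit (rps), and membership rests on the names alone. The data are chromatin immunoprecipitation sequencing (ChIP-seq) peak lists for LAG-1 from 1 group of 2 biological replicates. Worms of strain RW12314 carried a CRISPR insertion that fused lag-1 at its own locus to TY1, EGFP and 3xFLAG. They were starved as L1 larvae after bleaching to synchronise them and were collected whole as young adults at 62 hours. The antibody was directed against GFP, so each value averages the chromatin of all tissues, and a site bound in a small share of cells cannot be told apart from a site bound weakly in many. No untagged or untreated worms were analysed here, no groups could be compared, and no test between conditions was possible.

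LAG-1 is the DNA-binding protein of the CSL family through which the Notch receptors GLP-1 and LIN-12 act on their target genes, and in the adult GLP-1 signalling keeps germline stem cells from entering meiosis. Each eukaryotic ribosome has a large subunit, which joins amino acids into protein, and a small subunit, which reads the messenger RNA. Every growing cell needs the proteins of both in matched amounts, and their genes are among the most highly transcribed in growing tissues. In C. elegans many of these genes are short, and many of their messages receive a spliced leader by trans-splicing, so that the annotated 5' end of a gene can lie downstream of the place where transcription begins.

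For each gene the strongest candidate peak was taken from a window that ran from 2000 bp upstream of its annotated 5' end to its 3' end. Candidates came from the ranking that compares the replicates with each other, which lists weak entries as well as strong ones. Each candidate has a signal, the authors' value for its strength against the control as their peak caller gave it, in a unit that the files do not name. The irreproducible discovery rate (IDR) estimates how large a part of the matches between ranked lists is false, and a gene was counted as past the threshold where the IDR of its strongest candidate was 0.01 or below. Sequencing depth is unknown from the lists, and no error of a signal could be computed. Because a longer window holds more candidates, values are given beside all protein-coding genes and beside the 8024 genes that span 276 to 1734 bp, the range of the ribosomal protein genes.

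LAG-1 candidates passed the threshold at 10 of the 76 genes (13.2%, 95% Wilson interval 7.31 to 22.6%). The same rule was met at 1.53% of all protein-coding genes and at 1.07% of genes in the same span range. With genes weighted over 10 classes of span as the ribosomal protein genes fall, the share was 1.19%, which corresponds to 0.908 genes of 76. The 10 genes were rpl-3, rpl-15, rpl-20, rpl-35, rpl-36, rpl-38 and rpl-43 of the large subunit and rps-1, rps-14 and rps-23 of the small subunit. They rest on 9 candidates, since rps-14 and rpl-36 lie head to head and share a candidate. All 10 were in the authors' conservative thresholded list. That list is also cut by IDR, so this is no separate support. That ribosomal protein genes carried more such peaks than other genes was known before these genes were chosen for description, so the count is no independent evidence of it. Intervals of shares cover counting error only.

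The strongest peaks lay between protein-coding genes, a short way upstream of the genes. The sequences of 6 peaks on the ce11 assembly (WBcel235) are shown because these candidates carry much of the result and share short words. Each is read 5' to 3' on the strand of its gene. Capitals mark matches on either strand to 5 words of 7 bases. The first word is TACCGTA, which reads TACGGTA on the other strand, and the second is AAGTGTA, which there reads TACACTT. The third word is AGTGTAT, with ATACACT as its reverse complement, and the fourth is CATACAC, with GTGTATG as its own. The fifth word is CCTAAAA, which on the other strand reads TTTTAGG. The 6 peaks lie at chrIII:7854590-7854825 for rpl-35, chrIV:654803-655038 for rpl-15, chrIV:4749949-4750184 for rpl-20, chrIII:4475535-4475770 for rps-1, chrIV:12391208-12391443 for rps-23 and chrII:14154404-14154639 for rpl-43. The genes rpl-15, rpl-20 and rps-23 are on the minus strand and the others on the plus strand.
rpl-35: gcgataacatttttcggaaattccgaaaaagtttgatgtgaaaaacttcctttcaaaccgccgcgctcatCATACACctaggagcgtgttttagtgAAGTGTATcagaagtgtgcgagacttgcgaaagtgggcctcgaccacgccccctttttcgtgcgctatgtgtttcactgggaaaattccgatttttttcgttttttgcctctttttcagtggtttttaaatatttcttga
rpl-15: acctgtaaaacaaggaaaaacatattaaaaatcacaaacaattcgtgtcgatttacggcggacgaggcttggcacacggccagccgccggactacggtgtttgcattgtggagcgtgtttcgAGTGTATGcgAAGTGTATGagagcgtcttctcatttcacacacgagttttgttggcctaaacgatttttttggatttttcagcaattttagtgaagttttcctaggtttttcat
rpl-20: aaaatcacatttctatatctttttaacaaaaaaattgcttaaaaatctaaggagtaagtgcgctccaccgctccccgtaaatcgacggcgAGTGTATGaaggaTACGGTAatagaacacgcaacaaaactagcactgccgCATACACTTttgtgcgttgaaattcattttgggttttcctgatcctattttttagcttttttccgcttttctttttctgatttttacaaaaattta
rps-1: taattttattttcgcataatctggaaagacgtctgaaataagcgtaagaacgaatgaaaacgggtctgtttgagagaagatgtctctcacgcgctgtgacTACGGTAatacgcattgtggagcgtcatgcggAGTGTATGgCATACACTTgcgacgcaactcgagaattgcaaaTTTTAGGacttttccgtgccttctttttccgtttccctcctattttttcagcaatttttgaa
rps-23: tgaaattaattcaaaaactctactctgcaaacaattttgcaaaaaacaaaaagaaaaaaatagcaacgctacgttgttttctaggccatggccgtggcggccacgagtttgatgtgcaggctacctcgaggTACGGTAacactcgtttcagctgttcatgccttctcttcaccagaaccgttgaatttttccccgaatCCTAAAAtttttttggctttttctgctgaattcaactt
rpl-43: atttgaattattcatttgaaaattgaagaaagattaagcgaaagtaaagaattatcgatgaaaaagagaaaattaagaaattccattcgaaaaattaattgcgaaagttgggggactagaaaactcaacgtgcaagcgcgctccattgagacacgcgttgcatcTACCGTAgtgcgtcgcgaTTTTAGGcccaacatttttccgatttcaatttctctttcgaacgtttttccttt

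The words were picked after the peaks had been seen, as the 7-base words present within 100 bp of the summit in at least 5 of the 9 candidates and in fewer than 5% of the windows of all genes, so their shares here describe the choice. TACCGTA lay within 100 bp of 6 of the 9 summits, in 1 of 61 windows of the other ribosomal protein genes (rpl-26) and in 2.9% of 15513 windows over all genes. The words AAGTGTA, then AGTGTAT, and the complement of CATACAC overlap each other and are counted together as a family. At least 1 of the 3 was found at 6 of the 9 summits, in 1 of the 61 other windows (rpl-4) and in 5.23% of windows over all genes. In the rps-1 peak all 5 words occurred, and in the rpl-15 peak 2 copies of the family stood side by side.

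Among the 215 windows of other genes past the threshold, 5.12% held a family word and 4.19% held TACCGTA, close to the shares over all genes. TACCGTA together with a family word was found at 4 of the 9 summits (rpl-3, rpl-20, rpl-38 and rps-1), at 0 of the 61 other ribosomal protein windows and at 0.148% of all windows. The word CCTAAAA was found at 5 of 9 summits, at 9.84% of the other ribosomal protein windows and at 3.98% of all windows. The combination was thus more frequent at these peaks than in the other windows, and these peaks are also where the words were found.

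The 500 bp upstream of the annotated 5' ends were read for the same words without regard to where a candidate lay. A family word was present in this stretch of 6 of the 10 genes past the threshold (rpl-3, rpl-15, rpl-20, rpl-35, rpl-38 and rps-1) and of 1 of the 66 others (rpl-5), against 13.3% of all protein-coding genes. For rpl-3, rpl-15, rpl-20, rpl-35 and rps-1 this stretch includes the summit from which the words were picked, so it is not a separate reading. At rpl-38 it is separate, since the summit lay 1297 bp upstream. It is also separate at rpl-36, rpl-43 and rps-14, whose summits lay outside the stretch, and none of these held a family word. CCTAAAA was common in this stretch at ribosomal protein genes in general, in 5 of the 10 past the threshold and in 29 of the 66 others (43.9%), against 11.8% of all genes. TACCGTA was present in 4 of the 10 and in 13 of the 66 others (19.7%), against 7.24% of all genes. The 4 were rpl-3, rpl-20, rps-1 and rps-23, where the stretch includes the summit from which the word was picked. Their count is thus not a separate reading, and the same holds for CCTAAAA at rpl-3, rps-1 and rps-23.

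The words did not by themselves mark strong candidates elsewhere. Among all candidates other than the strongest of a ribosomal protein gene, 20 of 6605 with a family word (0.303%) passed the threshold, against 0.305% of all such candidates. With TACCGTA the share was 0.43% of 3721, and with both it was 0.562% of 178, which is 1 candidate.

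The LAG-1 binding site, read as ATGGGAA or, with the other purine first, GTGGGAA on either strand, was present within 100 bp of the summit at 0 of the 9 candidates past the threshold. It was present at 5 of the 73 ribosomal protein genes with a candidate (6.85%) and at 6.88% of windows over all genes. Among the 215 windows of other genes past the threshold, 2.33% held ATGGGAA and 5.58% held GTGGGAA, against 4.11 and 2.88% of all windows. The 5 ribosomal protein genes were rpl-22, rpl-25.2, rpl-42 and rps-13, with GTGGGAA, and rps-22, with ATGGGAA. Their candidates had IDR values from 0.0581 for rpl-25.2 to 0.459 for rpl-42. TTTCAG, which spells the core of a 3' splice site of C. elegans on 1 strand, was found at 6 of the 9 summits, at 54.1% of the other ribosomal protein windows, at 33.6% of all windows and at 18.6% of windows of other genes past the threshold. The E-box CACGTG was found at 0 of the 9 summits and 4.74% of all windows, and the TATA-like word TATAAA at 0 and 15.3%. The word GCGCAGGG was found at 0 of the 9 and 0.168% of all windows, and the repeat GAGAGA at 2 of the 9 and 12.1%. With 9 windows, a count of 0 does not show a lower share. A match describes letters and not a bound site.

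Among large-subunit genes, rpl-3 had the strongest peak. RPL-3 reaches toward the centre of the ribosome where peptide bonds form. The signal at rpl-3 was 139.6 with an IDR of 0.000752 and a summit 265 bp upstream of the 5' end. In the replicates' own lists the nearest entries had signals of 71.9 in replicate 1 and 67.7 in replicate 2. It was the sole peak of these genes that stood in the thresholded lists of both replicates, and no other protein-coding 5' end lay within 3 kb of its summit (that of acs-19 was 3100 bp away).

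At rpl-15 the signal was 101.4 (IDR 0.00137), with 41.4 in replicate 1 and 54.5 in replicate 2. At rpl-20 it was 101.1 (IDR 0.0014), with 56.6 in replicate 1 and 41.5 in replicate 2. The order of the replicates was thus opposite at these genes, and each passed the threshold in the ranking of its stronger replicate alone. Both genes have a divergent neighbour, K11H12.8 at rpl-15 and Y17G9B.5 at rpl-20. The summit, 345 bp upstream of rpl-15, was nearer to rpl-15 (469 bp to K11H12.8), whereas the summit 289 bp upstream of rpl-20 was nearer to Y17G9B.5 (173 bp).

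RPL-35 sits beside the tunnel through which the new protein leaves the ribosome. At rpl-35 the signal was 90.9 (IDR 0.00133) and the summit lay 426 bp upstream, with 42.7 in replicate 1 and 53.2 in replicate 2. The replicates' own IDR values, 0.0117 and 0.0101, fell just short of the threshold in each. At rpl-38, whose mouse counterpart is known for its effect on the translation of Hox messages, the signal was 79.6 (IDR 0.00195), with 38.0 in replicate 1 and 41.7 in replicate 2. Its summit lay 1297 bp upstream in an exon of the neighbouring gene C06B8.7. At rpl-43 the signal was 73.3 (IDR 0.00995), with 22.7 in replicate 1 and 47.3 in replicate 2. The summit lay 772 bp upstream of rpl-43 and 149 bp upstream of the divergent gene Y48B6A.1, and its own IDR in replicate 1 was 0.722.

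Among small-subunit genes, rps-1 had the strongest peak. Its signal was 80.0 (IDR 0.00577) at 265 bp upstream, with 25.1 in replicate 1 and 50.8 in replicate 2. As at rpl-43, most of the strength came from replicate 2, in whose thresholded list both stood, and the own IDR of rps-1 in replicate 1 was 0.416. The divergent neighbour of rps-1 is ifet-1, which encodes a repressor of germline translation, and its 5' end lay 503 bp from the summit. The nearest 5' end of any annotated gene was that of the non-coding RNA gene F56F3.11, with the summit 4 bp downstream of it. At rps-23, whose protein helps to check the pairing of codon and transfer RNA, the signal was 60.1 (IDR 0.00274), with 34.3 in replicate 1 and 36.2 in replicate 2. The replicates were nearly equal there, yet neither passed on its own (IDR 0.115 and 0.0662). The summit lay between rps-23 (273 bp) and dpm-3 (261 bp), at nearly the same distance from each.

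The candidate shared by rps-14 and rpl-36 was the weakest of the 9. It lay at chrIII:7179198-7179433 in an exon of rps-14, with its summit 272 bp downstream of the 5' end of rps-14 and 935 bp upstream of that of rpl-36. Its signal was 58.9 (IDR 0.00889), with 27.7 in replicate 1 and 29.5 in replicate 2. It was absent from the pooled thresholded list, with an IDR of 0.0106 in the pooled ranking, and neither replicate ranked it near the threshold (IDR 0.729 and 0.383). In humans, reduced dosage of RPS14 is known to impair the making of red blood cells.

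**Figure D1:**
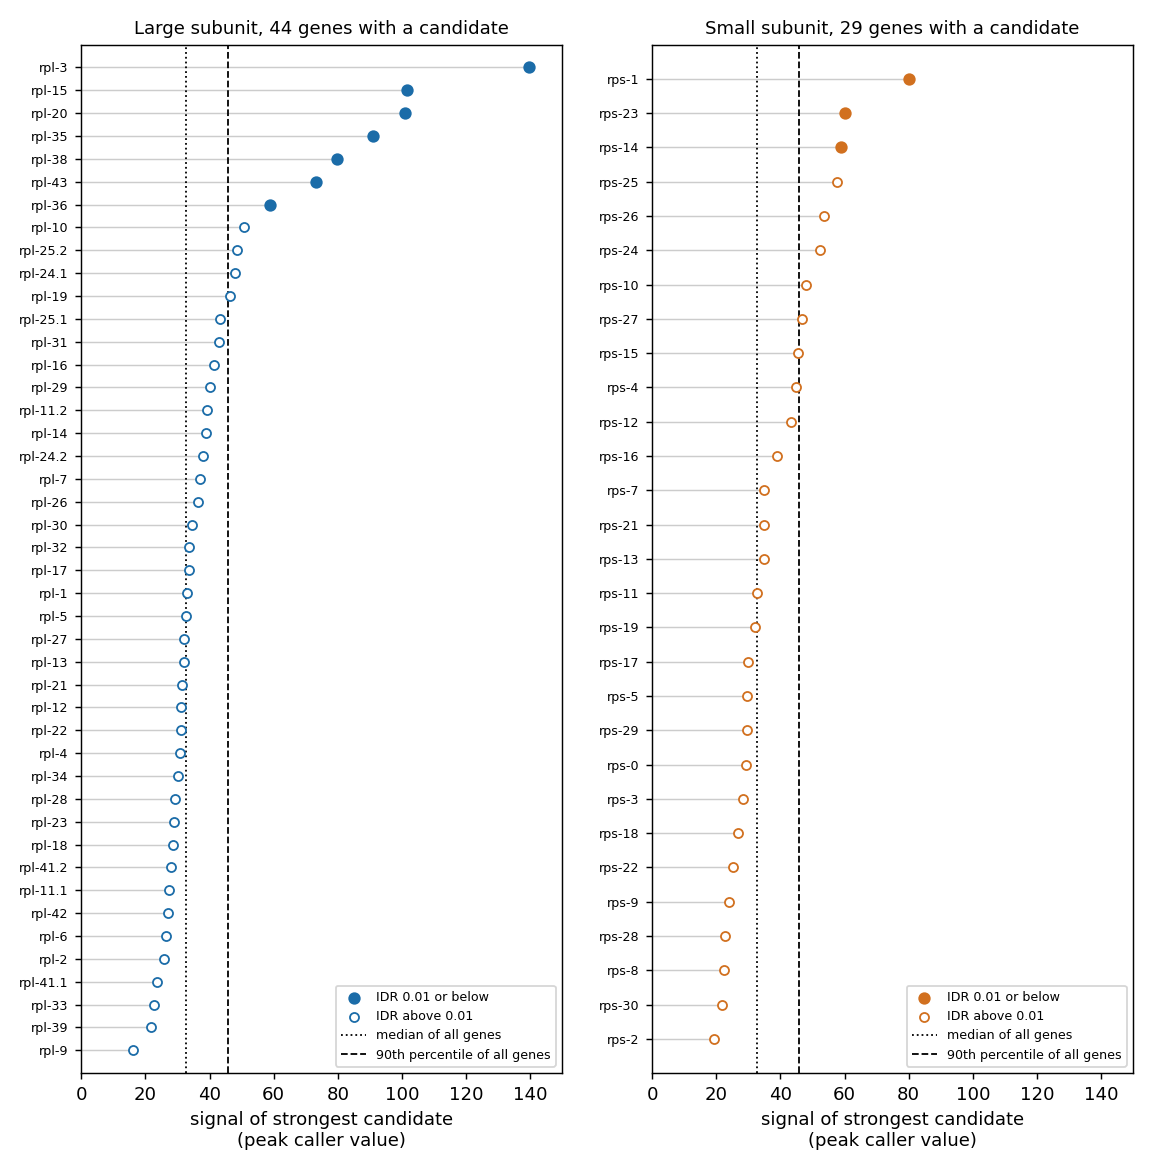
Signal of the strongest LAG-1 candidate (peak caller value, linear axis) at each of the 44 large-subunit and 29 small-subunit genes with a candidate, sorted within each panel. Filled points passed an IDR of 0.01, the dotted line is the median of all protein-coding genes (32.7) and the dashed line their 90th percentile (45.7). A few genes, led by rpl-3 at 139.6, stand to the right of a body of genes spread around the median.

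Past these 10 genes the values ran on without a gap in IDR. Just inside the threshold was rpl-43 (0.00995) and just outside it rpl-10 (IDR 0.0103, signal 50.8), whose protein lies near the transfer RNAs and, in yeast, joins the large subunit late in its assembly. Next came rps-25 (0.0131, signal 57.7), rps-24 (0.0171, signal 52.4) and rps-26 (0.0243, signal 53.5). RPS-25 is known, from human and yeast cells, for its part in translation that starts inside a message. The summits of rps-24 and rps-26 lay 337 and 396 bp upstream, while those of rpl-10 and rps-25 lay inside the genes, at 148 and 314 bp downstream of the 5' end. The following genes were rps-4 (0.0415), then rpl-24.1 and its divergent neighbour rps-10, which share a candidate (0.0495, signal 48.0). The 10 next genes closed with rpl-25.2 (0.0581), rps-12 (0.0709) and rps-15 (0.0715). At an IDR of 0.05 or below, the count was 17 of 76 (22.4%), against 7.35% of all genes and 4.94% of genes in the same span range.

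At the other end, rps-6, rps-20 and rpl-37, so 3 of 76, had no candidate in their windows. The same held for 918 of 19973 protein-coding genes and for 425 of the 8024 in the same span range. In the pooled ranking rpl-37 had an entry, with a signal of 10.6. RPS-6 is the small-subunit protein that S6 kinase phosphorylates. The weakest candidates were those of rpl-9 (signal 16.04), rps-2 (19.4), rpl-39 and rps-30 (21.9, a candidate they share) and rps-8 (22.3). RPL-39 lines the exit tunnel, and RPS-30 is made as a fusion with a ubiquitin-like protein. These lay under the lower quartile of all genes, which was 27.3. Thus genes named for proteins of the same particle ranged in signal from 16.04 to 139.6.

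Over the 73 genes with a candidate, the median signal was 33.7 with quartiles of 29.1 and 46.2, against a median of 32.7 for all genes and 30.2 for genes in the same span range. Ranked among all protein-coding genes, the median percentile was 54.6, against 38.0 for the same span range. Within its own class of span, of 10 equal classes, the median ribosomal protein gene stood at the percentile 69.8. The 63 genes not past the threshold had a median percentile of 46.9, against 49.2 for all genes not past it and 37.4 for those of the same span range. The top 10% of all genes held 19 of the 73 (26.0%), against 6.3% of genes in the same span range, and the bottom 10% held 5 (6.85%), against 16.2%. The 19 were the 10 past the threshold and rpl-10, rpl-19, rpl-24.1, rpl-25.2, rps-10, rps-24, rps-25, rps-26 and rps-27. Against all genes, the ribosomal protein genes thus stood out in a tail of strong candidates, and their other members ranked near the middle. Against genes of the same span range, the members not past the threshold also ranked higher.

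**Figure D2:**
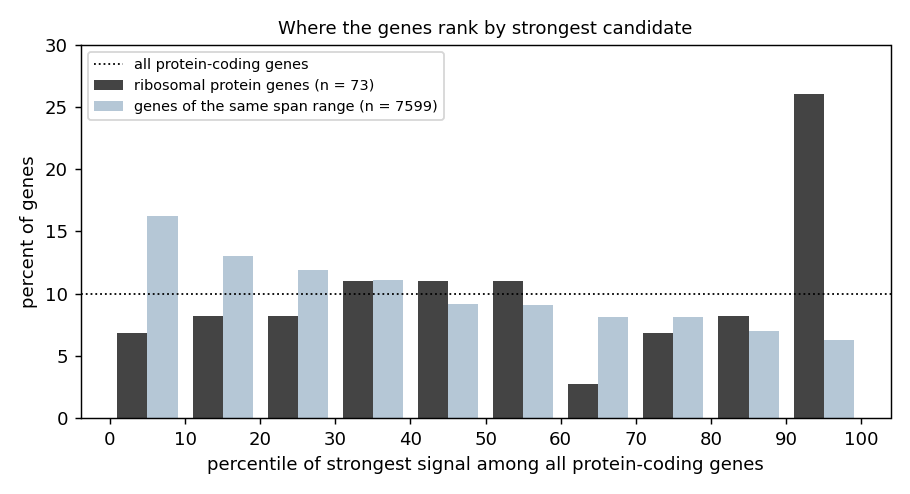
Percent of genes in each step of 10 percentiles of the ranking of all protein-coding genes by strongest signal, for the 73 ribosomal protein genes with a candidate and for 7599 genes with a candidate in the same span range. The dotted line at 10% is the share that all genes have by construction. The top step holds 26.0% of the ribosomal protein genes and 6.3% of the genes of the same span range, and the other steps hold 2.74 to 11.0% of the ribosomal protein genes.

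The subunits did not separate by strength. Past the threshold were 7 of 45 large-subunit genes (15.6%, 95% Wilson interval 7.75 to 28.8%) and 3 of 31 small-subunit genes (9.68%), and the intervals overlap widely. At an IDR of 0.05 or below, the shares were 20.0 and 25.8%, in the opposite order. The median percentile was 54.2 for the large and 59.3 for the small subunit, and the top 10% held 11 of 44 and 8 of 29 genes. In the rankings within each replicate the order of the medians turned, with the large subunit higher by 10.2 percentile points in replicate 1 and 10.6 in replicate 2, so no order of the subunits can be read.

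The genes that come in numbered pairs were also compared. RPL-11.1 and RPL-11.2 are close copies of the same ribosomal protein, and the signals were 27.3 at rpl-11.1 and 39.3 at rpl-11.2. For rpl-24.1 and rpl-24.2 they were 48.0 and 37.9, and for rpl-25.1 and rpl-25.2 they were 43.1 and 48.5. For rpl-41.1 and rpl-41.2, which encode the smallest ribosomal protein, they were 23.7 and 28.1. None of these 8 genes passed the threshold, against 13.2% of the 76 ribosomal protein genes and 1.53% of all genes, and 8 are too few to show a lower share. The signals within a pair were closer to each other than to those of the genes past it, which were chosen for strong candidates. Within 150 bp of the summit, rpl-11.1 had no own entry in either replicate. At rpl-11.2, rpl-24.2, rpl-41.1 and rpl-41.2 such an entry was missing in 1 replicate.

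The replicates were compared gene by gene through the nearest entry of each replicate's own list within 150 bp of the summit. All 10 genes past the threshold had such an entry in both replicates. Their signals ran from 22.7 to 71.9 in replicate 1, with a median of 36.1, and from 29.5 to 67.7 in replicate 2, with a median of 44.5. Of the 63 other genes with a candidate, 52 had an entry in replicate 1 with a median of 18.7, and 43 had one in replicate 2 with a median of 19.4. These medians lie near those of the strongest own entries of all genes, 18.4 and 19.1. Since the threshold itself compares the replicates, higher signals at the 10 genes are part of the choice and no separate evidence.

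**Figure D3:**
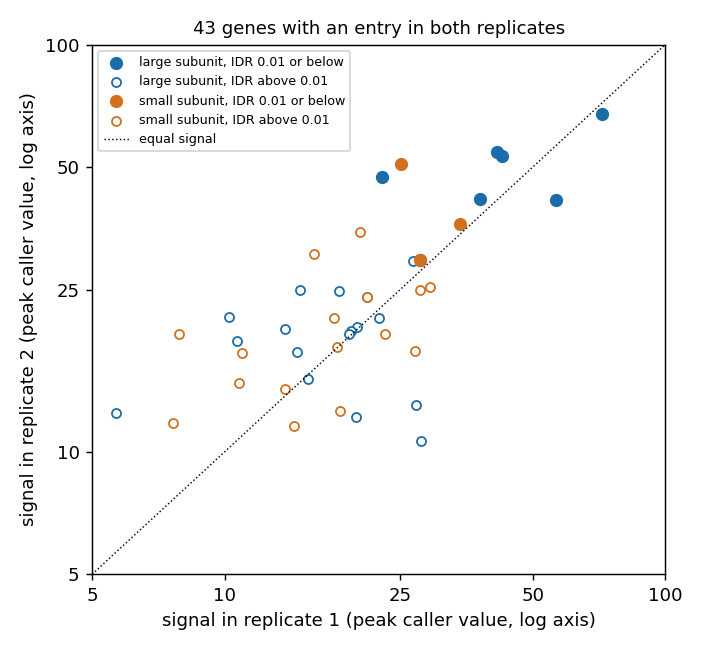
Signal of the nearest own entry in replicate 1 (x axis) and replicate 2 (y axis), both log axes of the peak caller value, for the 43 ribosomal protein genes with an entry in both. Filled points passed an IDR of 0.01 between replicates, and the dotted line marks equal signal. The filled points reach 71.9 and 67.7 at rpl-3, while rpl-43 and rps-1 lie well above the line.

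Over the 43 genes with an entry in both replicates, the signals had a Spearman rho of 0.614 and a Pearson r of 0.668 on the log2 scale. Over the 33 genes not past the threshold, rho was 0.303. These are correlations across genes, some of which share a candidate, and genes are not independent replicates. The summits also lay closer together at the stronger genes, with a median gap between replicates of 10.5 bp and a largest gap of 109 bp at the 10 genes, against a median of 49.0 bp at the 33 others. Each replicate's strongest own entry was also taken without regard to the other. Both fell within 100 bp of each other at 24 of 66 genes (36.4%), against 19.0% of all genes. Among the 24 were 9 of the 10 past the threshold, where agreement is part of the choice. The median span was 753.5 bp for ribosomal protein genes and 2027 bp for all genes, so the windows of all genes are longer. No share for the same span range is given, so the difference also carries window length.

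In the rankings made within a single replicate fewer genes passed. In replicate 1 these were rpl-3, rpl-20 and rpl-29, so 3 of 76 against 0.275% of all genes. In replicate 2 they were rpl-3, rpl-15, rpl-43 and rps-1, so 4 of 76 against 0.436% of all genes. The lists thus shared 1 gene, rpl-3. In the ranking of pooled reads 8 of 76 passed, against 1.75% of all genes, and these were the 10 without rpl-36 and rps-14. At rpl-29 the candidate in the comparison of replicates had a signal of 40.1 and an IDR of 0.413, whereas replicate 1's own entry, 1064 bp upstream in an intron of B0513.4, had a signal of 41.3 and an IDR of 0.00919. Its strongest own entry in replicate 2 had a signal of 19.5, near the median of all genes, so rpl-29 rests on replicate 1 alone.

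A band 200 to 500 bp upstream of the annotated 5' end held a larger share of summits at ribosomal protein genes than at other genes. The band held 16 of 73 summits (21.9%), against 7.26% for all genes and 9.25% for genes in the same span range. Most summits lay outside it, with 22 more than 500 bp upstream and 31 at or downstream of the 5' end. Large-subunit genes had 7 of 44 summits in the band and small-subunit genes 9 of 29 (31.0%). Of the 16 genes with a summit in the band, 6 passed the threshold (37.5%), namely rpl-3, rpl-15, rpl-20, rpl-35, rps-1 and rps-23, against 4 of the 57 with a summit elsewhere (7.02%). Over all genes the shares past the threshold were 3.33% in the band and 1.47% elsewhere, and over genes in the same span range 2.42 and 1.0%. The band was drawn with the positions of the strongest peaks known.

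The median summit lay 265 bp upstream of the 5' end, against 101 bp downstream for all genes and 370 bp upstream for the same span range. Its side depended on the window, since it lay 44 bp downstream with windows from 1000 bp upstream and 112 bp downstream when a candidate went only to the gene with the nearest 5' end. For the large subunit the median was 317 bp upstream and for the small subunit 15 bp downstream. More than 500 bp upstream lay 18 of 44 large-subunit summits (40.9%) and 4 of 29 small-subunit summits (13.8%), against 46.0% for genes in the same span range. Distant summits were thus a smaller share of the small-subunit genes, a difference that was not tested. By the annotation of protein-coding genes, 21 of the 73 summits lay in intergenic DNA, 41 in exons and 11 in introns. Of the 10 genes past the threshold, 7 had intergenic summits (that of rps-1 over a non-coding RNA gene), 3 had exonic ones and 0 had intronic ones. The exonic ones were those of rpl-38 and of rpl-36 and rps-14, which share a candidate. Shares of these places over other genes are not given, so the counts do not show a trait of ribosomal protein genes.

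**Figure D4:**
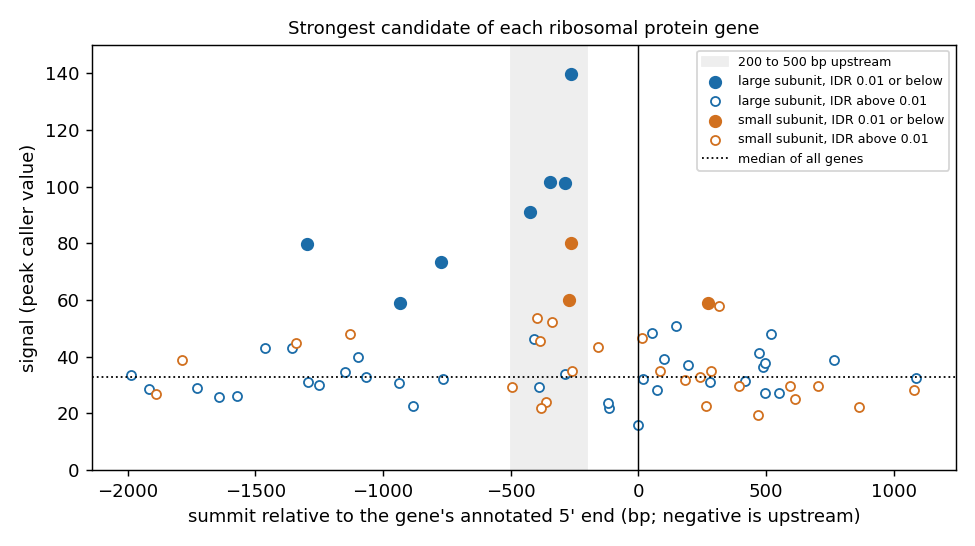
Signal of each gene's strongest candidate (peak caller value) against the distance of its summit from the annotated 5' end in bp, negative being upstream. The grey band marks 200 to 500 bp upstream, filled points passed an IDR of 0.01 and the dotted line is the median of all genes. The band holds 6 filled points, among them the 4 highest of the plot, from 90.9 to 139.6.

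GC content at ribosomal protein genes lay between that of all genes and that of all genes past the threshold. Within 100 bp of the summit it had a median of 42.8% at ribosomal protein genes and 43.8% at the 10 past the threshold. It was 39.8% over all genes and 46.3% over all genes past the threshold. The part of base composition in the signals was not tested.

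Divergent neighbours are a feature of these genes. The nearest upstream protein-coding gene lay on the other strand, with 5' ends at most 1000 bp apart, at 45 of 76 ribosomal protein genes (59.2%), against 18.1% of all genes and 21.1% of genes in the same span range. The threshold was passed at 7 of the 45 (15.6%) and at 3 of the 31 without such a neighbour (9.68%), against 2.38 and 1.35% of all genes. The interval of each share among ribosomal protein genes covers the other share. Of the 10 genes past the threshold, 6 had the 5' end nearest to the summit of all protein-coding genes, namely rpl-3, rpl-15, rpl-35, rpl-38, rps-1 and rps-14. At rpl-20, rps-23, rpl-36 and rpl-43 the divergent neighbour was nearer, so which gene of the pair the peak belongs to cannot be told from position.

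Genes that lie close behind another on the same strand were taken as a stand-in for the later genes of operons, since no operon annotation was used. With a gap of at most 500 bp, 8 of 76 ribosomal protein genes fell in this class: rpl-16, rpl-19, rpl-25.1, rpl-27, rps-2, rps-7, rps-16 and rps-17. None passed the threshold (0 of 8), where 1.22% of the 4101 such genes in the genome did, and 8 genes are too few to show a lower share. The highest signal among them was 46.2 at rpl-19, with an IDR of 0.402. Their median percentile was nonetheless 67.1, against 48.0 for all such genes and 50.4 for ribosomal protein genes with a divergent neighbour.

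By chromosome, the threshold was passed at 5 of 18 genes on chromosome III (27.8%), 3 of 16 on IV, 1 of 9 on II and 1 of 8 on V. On X it was passed at 0 of 2 and on chromosome I, which carries the most of these genes, at 0 of 23. The 95% Wilson interval of the latter reaches 14.3%. The share over all 76 genes, 13.2%, lies within it but also counts these 23 genes, which lower it. Over all protein-coding genes, the shares were 2.31% on chromosome III and 1.25% on chromosome I. They were 1.37% on IV, 1.71% on II, 1.16% on V and 1.72% on X. The ribosomal protein genes of chromosome I had a median percentile of 59.5, above the median of all 73, and the lowest IDR among them was that of rps-26. The 5 on chromosome III include rps-14 and rpl-36, which share a candidate.

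**Figure D5:**
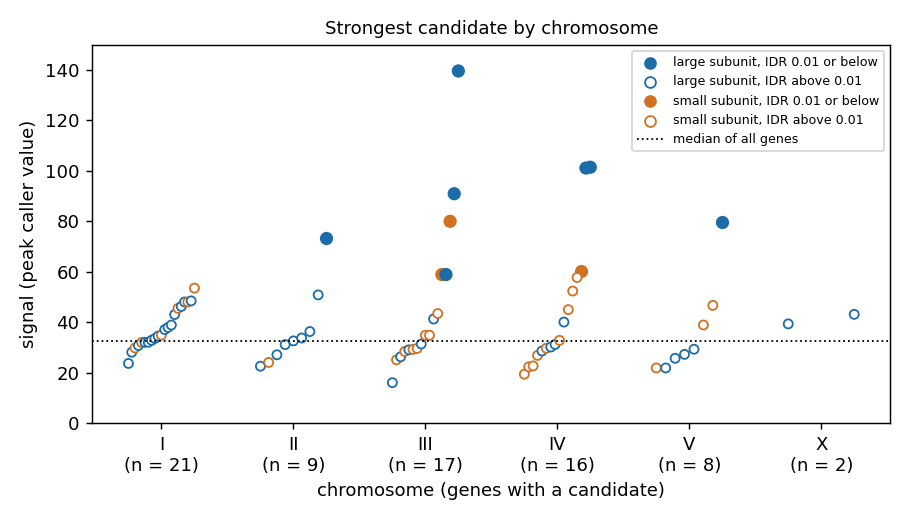
Signal of the strongest candidate (peak caller value) at each ribosomal protein gene by chromosome, with genes sorted by signal within a chromosome. Filled points passed an IDR of 0.01 and the dotted line is the median of all genes. All 21 points of chromosome I are open, the highest at 53.5 (rps-26), whereas chromosome III has 5 filled points from 58.9 to 139.6.

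Other genes of the translation machinery were read in the same way from lists chosen with earlier results known. Of 8 further cytosolic ribosomal proteins with other names, 0 passed the threshold, against 1.53% of all genes, and their median percentile was 61.5. The lowest IDR among them was that of rpl-7A (0.0494, signal 51.9), the signal of rla-2, an acidic stalk protein, was 13.2, and the other 6 had signals from 22.7 to 40.6. Of 70 mitochondrial ribosomal protein genes, 1 passed (mrps-28, signal 98.3, IDR 0.00127, summit 1024 bp upstream) and the median percentile was 46.9. Of 8 elongation factor genes, 1 passed (eef-1G, signal 57.6, IDR 0.00842, summit 1376 bp downstream of its 5' end), but 5 were in the top 10% of genes and the median percentile was 93.1. Of 32 initiation factor genes and 20 genes for making ribosomes, 0 passed, with median percentiles of 57.3 and 55.9. The top 10% of genes held 5 of the 19 ribosome-making genes with a candidate, a share like that of the ribosomal protein genes. None of these lists was set beside genes of matched span, so their ranks also carry differences in window length. It held 1 of 30 initiation factor genes, 5 of 67 mitochondrial ribosomal protein genes and 1 of the 8 further cytosolic ones.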

How the data were processed

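LAG-1 ChIP-seq was read from peak lists that the authors made on ce11 from precipitated and control DNA of 2 biological replicates, per the labels and the notes deposited with each. Which aligner and peak caller they ran is not given in the sources used here. The deposited signal is the caller's strength per peak, in an unnamed unit. The deposited score is a whole number that follows the IDR and equals 830 at an IDR of 0.01. The deposited −log10 values give the global IDR. Replicates were not averaged, and values within each replicate came from its own list.

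Genes and 5' ends came from Ensembl release 115, sequence from the NCBI assembly WBcel235. The strongest candidate by signal was kept for each gene, and its percentile was taken among all protein-coding genes with a candidate. Shares have 95% Wilson intervals. No p-values were computed, since there is 1 group. The genes and lists were chosen with earlier results of these data known. Named genes were those past the threshold, the 10 next by IDR, the 5 weakest, those with no candidate or in a thresholded list, numbered pairs, nearer neighbours, and up to 4 of each other list. The gene assignment was tested on simulated data. Alternatives changed the ranking, IDR threshold, window, gene assignment and 5' end. Replicate values inside the comparison of replicates, in unnamed columns, were not used. Tools were matplotlib 3.10.9, SciPy 1.17.1, pandas 2.3.3 and NumPy 2.4.6 under Python 3.11.15. Sequences are given for 6 of the 9 peaks, and the others are not reported here.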

Additional observations from a re-analysis of the deposited data

How the results depend on the processing

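Of 103 alternative values, 66 stayed within the limits set for them, 35 moved and 2 reversed. The limits were a fixed ratio for counts and shares, and the spread between the 2 replicate rankings for the other values. A stricter IDR cannot change percentiles or summit positions, and the pooled ranking gave nearly all of these genes the same signals. The 66 thus include values that could hardly move, and the tally does not measure robustness. The count of 10 genes past the threshold became 6 at an IDR of 0.005, 6 in a window from 500 bp upstream to 100 bp downstream and 6 when a candidate went only to the gene with the nearest 5' end, and all of these were among the 10. In the rankings within 1 replicate it was 3 to 4. The share of all genes past the threshold was then 0.851, 0.436 and 0.951%, and 0.275 to 0.436% within 1 replicate. Large-subunit genes past the threshold became 4 in the 500 bp window, 4 by nearest gene and 3 within either replicate, and small-subunit genes 1 at an IDR of 0.005 and 0 to 1 within 1 replicate.

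The median percentile, 54.62, was 51.45 with windows from 1000 bp upstream, 66.84 in the 500 bp window, 50.68 by nearest gene and 55.88 to 58.77 within 1 replicate. The large minus small difference in median percentile, -5.163, was -5.561 in the pooled ranking, -0.9391, -6.395 and -14.43 under those 3 settings and -6.791 with 5' ends at start codons, and it reversed to 10.24 to 10.59 within 1 replicate. The median summit, at -265 bp, moved to 44 bp with windows from 1000 bp and 112 bp by nearest gene, and summits from 500 bp upstream to 100 bp downstream rose from 25 to 56 in the window of that size, by construction. Genes with a divergent neighbour past the threshold went from 7 to 3 at an IDR of 0.005. They were 4 in the 500 bp window and 3 by nearest gene. Those without such a neighbour stayed at 3 at an IDR of 0.005 and by nearest gene, and were 2 in the 500 bp window. Within replicate 1 the counts were 1 with and 2 without such a neighbour, and within replicate 2 they were 3 and 1. The order of the shares thus turned at an IDR of 0.005, by nearest gene and in replicate 1. Shares of all genes by neighbour were not computed under these settings. Where no construction explains a change, the cause was not tested.

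Taking the entry with the lowest IDR, an alternative added with the values in view, gave the same 10 genes. No paired analysis was possible because there is 1 group. In the ranking, 100 entries below the IDR limit are missing from the conservative list, and none of the 10 genes rests on them. Read depth and control reads were not analysed here. At rpl-15, rpl-43 and rps-1 only replicate 2 passed on its own, and at rpl-20 only replicate 1.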
